A study of Mus musculus with 6 samples.

Results

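Epicardial and mesothelial genes were followed across 6 infarcted mouse hearts. They are 9 genes of the outer lining of the heart, chosen by name with earlier results of these data known. Counts over them are therefore a description only. The genes are Msln, Gpm6a, Upk3b, Upk1b, Wt1, Tbx18, Bnc1, Krt8 and Krt19. Each matched exactly 1 of the 22206 features of a Clariom S mouse array through its symbol in the array annotation, so all 9 were measured. RNA came from hearts, 1 array per heart, after ligation of the left coronary artery in male mice that were 8 weeks old at surgery. Mice whose ejection fraction was above 45% on day 2 had been removed from the study.

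The hearts formed 3 groups of 2. The 8W-Ctrl group carried Tcf21iCre and Tomato and was sampled 2 months after infarction. The 12W-Ctrl group had the same genotype and was sampled at 3 months. The 12W-TTg group carried Tcf21iCre, Tomato and MGTH2A and was sampled at 3 months. Tcf21iCre is an inducible Cre at Tcf21, a gene of cardiac fibroblasts that is also active in the epicardium, Tomato is a fluorescent reporter, and MGTH2A is a construct that encodes Gata4, Mef2c, Tbx5 and Hand2, transcription factors of heart muscle development. All 3 groups had the Cre, the reporter and an infarct, so no group here shows the uninjured heart. The labels do not say when or how the Cre was induced, which cells the factors reached, or which part of the heart each RNA sample covered.

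The epicardium is the mesothelium that covers the heart, a single sheet of flat epithelial cells continuous with the lining of the pericardial sac. It forms during development from the proepicardium, and part of it undergoes an epithelial-to-mesenchymal transition that supplies fibroblasts and mural cells. In the adult it is largely quiet, and after infarction it thickens and takes up again some of its embryonic genes, among them Wt1 and Tbx18. In bulk RNA, fewer cells of a type and less RNA per cell cannot be told apart, and several of these genes are also used by other cells of the heart, such as Wt1 by endothelial cells and Tbx18 by mural cells.

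Promoter sequence is shown for Gpm6a and Upk3b, the members with the widest differences between groups. RefSeq windows from 250 bases before to 50 bases after the annotated start (GRCm38.p6) were matched for 5 of the 9 genes, in 6 windows, because Gpm6a has 2 starts that its single array feature does not separate. Capitals mark matches on either strand to 1 of 5 short motifs. The one known for TEAD factors was spelled GGAATG. The one known for T-box factors, to which Tbx18 belongs, was spelled GGTGTGA. The motif of factors that bind like Gata4 was spelled AGATAA. The motif shared by the Wt1 and Egr proteins was spelled GCGGGGGCG. The core promoter element known as the TATA box was spelled TATAAA.
Gpm6a upstream start, chr8:54779184-54779483, plus strand: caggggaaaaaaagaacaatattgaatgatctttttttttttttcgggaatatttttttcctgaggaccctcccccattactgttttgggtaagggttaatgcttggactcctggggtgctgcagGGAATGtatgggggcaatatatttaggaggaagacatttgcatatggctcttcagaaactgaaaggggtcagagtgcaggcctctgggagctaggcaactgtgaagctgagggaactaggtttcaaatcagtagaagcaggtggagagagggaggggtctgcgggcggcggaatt
Gpm6a downstream start, chr8:54954478-54954777, plus strand: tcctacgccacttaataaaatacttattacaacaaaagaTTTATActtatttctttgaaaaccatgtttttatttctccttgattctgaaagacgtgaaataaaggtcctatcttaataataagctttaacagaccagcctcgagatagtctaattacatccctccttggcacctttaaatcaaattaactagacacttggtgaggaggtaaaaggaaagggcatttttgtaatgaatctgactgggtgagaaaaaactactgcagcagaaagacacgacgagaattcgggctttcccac
Upk3b, chr5:136038246-136038545, plus strand: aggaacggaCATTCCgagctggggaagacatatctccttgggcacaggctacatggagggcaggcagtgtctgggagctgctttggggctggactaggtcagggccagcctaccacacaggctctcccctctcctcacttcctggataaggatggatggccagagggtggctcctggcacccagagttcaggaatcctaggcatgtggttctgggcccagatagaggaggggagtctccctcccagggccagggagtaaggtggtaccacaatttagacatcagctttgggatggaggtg

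The capitals at bases 126 to 131 of the upstream Gpm6a window and at bases 10 to 15 of the Upk3b window are TEAD-type matches, the latter on the opposite strand. This motif lay in 14.7% of all 32851 windows of the same length. The capitals in the downstream Gpm6a window are a TATA-type match on the opposite strand, a motif held by 13.6% of windows. The Krt8 window held a GATA-type match, a motif in 11.2% of windows, and 2 overlapping TATA-type matches on opposite strands at its start. The Tbx18 and Bnc1 windows held none of the 5 motifs, and none of the 6 windows held the T-box or the WT1 and EGR motif, found in 3.98% and 2.91% of all windows. Base composition varied widely among the genes. G and C made up 36.0% and 47.0% of the Gpm6a windows, 58.7% of the Upk3b window and 83.3% of the Bnc1 window, against a median of 52.7% over all windows. These matches describe letters and no factor binding was measured.

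All values are log2 signals as deposited. The arrays had similar scales, with medians of 4.91 to 4.98 on 5 arrays and 5.0 on 12W-Ctrl replicate 1 and replicate correlations across features of 0.984 to 0.989. All 9 genes had a mean signal at or above the 30th percentile of all features (3.65), below which a signal was taken as dim, and only Krt19 fell below it, on 2 arrays. Msln, Wt1, Bnc1, Krt8 and Krt19 had means of 3.91 to 4.88, below the median of every array. The lung marker Sftpc, with a mean of 4.19, also passed this cut. Passing it therefore does not show that a gene is expressed. Ventricular and general cardiomyocyte markers were near the top of the scale on every array (8 of 8 measured, array means of 18.46 to 18.88). Atrial markers (5 of 5 measured) averaged 7.56 on 12W-Ctrl replicate 2 and 11.98 to 14.95 on the other 5 arrays. The low mean came from Myl7, Sln and Myl4, at 3.45, 5.53 and 5.90 there. The remaining markers did not set this array apart, so this heart's RNA stood apart in some atrial transcripts. Its part in the results below was not tested, and differences that involve the 12W-Ctrl group are also given without each of its arrays where that turns a direction or moves a value widely.

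Among the surface proteins of mesothelium, Gpm6a and Upk3b had the widest differences between groups. Gpm6a, a membrane glycoprotein best known from neurons, was at 11.32 and 11.02 in 8W-Ctrl, at 10.18 and 8.79 in 12W-Ctrl and at 9.05 and 8.31 in 12W-TTg. Both 8W-Ctrl hearts lay above all 4 later hearts, and 12W-Ctrl replicate 2 lay between the 12W-TTg arrays. Upk3b, a uroplakin of the bladder's surface plaques that is also a mesothelial marker, was at 8.89 and 10.18 in 8W-Ctrl, at 8.88 and 6.99 in 12W-Ctrl and at 7.51 and 6.74 in 12W-TTg. Here 12W-Ctrl replicate 1 was nearly level with 8W-Ctrl replicate 1, and 12W-Ctrl replicate 2 again lay inside the 12W-TTg range.

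Upk1b, a tetraspanin that forms heterodimers with uroplakin III proteins, was at 5.61 and 6.94 in 8W-Ctrl, at 6.92 and 4.76 in 12W-Ctrl and at 5.15 and 4.76 in 12W-TTg. The 2 control groups overlapped, and the 12W-TTg arrays lay below both 8W-Ctrl arrays. Msln encodes mesothelin, a surface protein anchored by a lipid tail that binds the mucin MUC16. It was at 4.96 and 4.97 in 8W-Ctrl, at 6.12 and 4.63 in 12W-Ctrl and at 3.99 and 4.63 in 12W-TTg. Its highest value came from 12W-Ctrl replicate 1 and its lowest from 12W-TTg replicate 1, while 12W-Ctrl replicate 2 and 12W-TTg replicate 2 were equal.

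The transcription factor genes varied less. Wt1, a zinc finger factor needed for formation of the epicardium and for its epithelial-to-mesenchymal transition, was at 4.69 and 4.80 in 8W-Ctrl, at 4.38 and 4.38 in 12W-Ctrl and at 3.92 and 4.20 in 12W-TTg. The 3 groups did not overlap, and the whole range over 6 arrays was 0.88. Tbx18, a T-box repressor of the proepicardium and sinus node, was at 5.45 and 6.09 in 8W-Ctrl, at 6.01 and 5.76 in 12W-Ctrl and at 5.0 and 6.14 in 12W-TTg. All 3 groups overlapped, and the 12W-TTg pair held both the lowest and the highest value. Bnc1, the zinc finger factor basonuclin 1 of keratinocytes and mesothelium, was at 4.51 and 4.46 in 8W-Ctrl, at 4.64 and 4.09 in 12W-Ctrl and at 4.29 and 4.16 in 12W-TTg. The 12W-Ctrl pair spanned all the other arrays.

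The keratin genes Krt8 and Krt19 encode intermediate filament proteins of simple epithelia. Krt8, a type II keratin that pairs with type I keratins such as Krt18, was at 4.45 and 4.94 in 8W-Ctrl, at 4.85 and 3.95 in 12W-Ctrl and at 4.36 and 4.51 in 12W-TTg. No group stood apart from another. Krt19, a type I keratin, was at 3.90 and 5.37 in 8W-Ctrl, at 3.78 and 3.70 in 12W-Ctrl and at 3.62 and 3.09 in 12W-TTg. The 3 groups did not overlap, though much of the distance came from 8W-Ctrl replicate 2, and both 12W-TTg values were in the dim range.

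**Figure D1:**
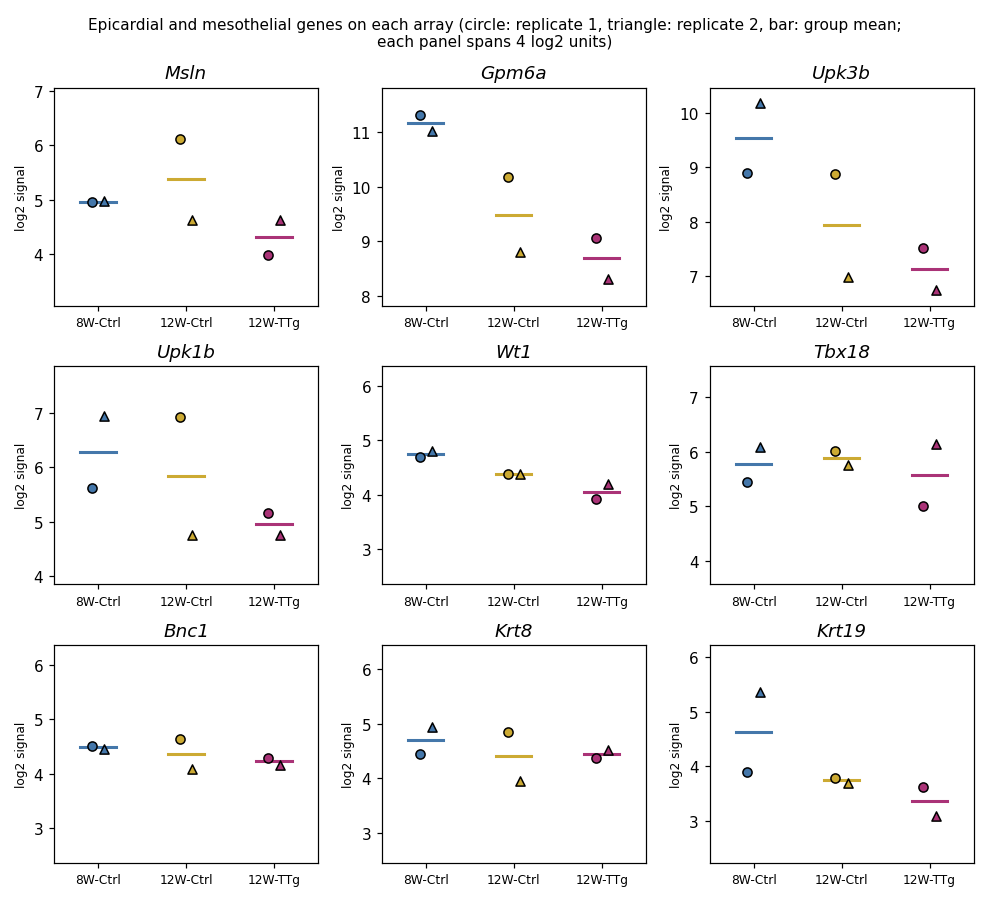
Log2 signal of each of the 9 genes on each array by group, with circles for replicate 1, triangles for replicate 2 and bars for the mean of the 2 arrays; every panel spans the same 4 log2 units. The means of Gpm6a and Upk3b step down from 8W-Ctrl to the later groups, and Wt1 and Krt19 separate the 3 groups. The 12W-Ctrl pair is wide for Msln, Gpm6a, Upk3b and Upk1b.

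The group means ran from high to low in the order 8W-Ctrl, 12W-Ctrl, 12W-TTg for 6 of the 9 genes (Gpm6a, Upk3b, Upk1b, Wt1, Bnc1 and Krt19), an order seen in 16.6% of all features. The highest mean was in 8W-Ctrl for 7 genes and in 12W-Ctrl for Msln and Tbx18. The lowest mean was in 12W-TTg for 8 genes and in 12W-Ctrl for Krt8. Of the 6 genes, 4 (Gpm6a, Upk3b, Wt1 and Krt19) had 8W-Ctrl values entirely above those of 12W-Ctrl, as had 17.4% of all features. Of these, 2, Wt1 and Krt19, also had 12W-Ctrl values entirely above those of 12W-TTg, a step seen by itself in 19.3% of all features. The share of features with both steps was not counted, so these 2 genes are a description only. The nearest 8W-Ctrl and 12W-Ctrl values were almost level for Upk3b, at 8.89 and 8.88, and close for Krt19, at 3.90 and 3.78. Neighbouring groups overlapped for Upk1b and Bnc1 throughout.

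Differences were tested with limma over all 22206 features, with p adjusted by the Benjamini-Hochberg method and a threshold of 0.05. They are given as log2 differences of group means ± SE with n = 2 arrays in each group. An exact permutation of 2 against 2 arrays cannot give p below 0.333.

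The comparison of 12W-Ctrl with 8W-Ctrl asks what a further month after infarction changed in control hearts. Gpm6a and Upk3b were lower at 3 months and carried the widest differences. Gpm6a differed by −1.69 ± 0.48, a 3.22-fold lower mean (unadjusted p = 0.00925, adjusted p = 0.504). Upk3b differed by −1.60 ± 0.68, a 3.03-fold lower mean (unadjusted p = 0.0490, adjusted p = 0.620). For both genes the 8W-Ctrl arrays lay above the 12W-Ctrl arrays, though for Upk3b the nearest values were 8.89 and 8.88.

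At 3 months 7 of the 9 genes had a lower mean than at 2 months, against 48.8% of all features, and Msln and Tbx18 had a higher one. No gene passed the adjusted threshold in limma, which 0.00450% of features passed, and 2 genes were lower at an unadjusted p under 0.05, where 4.09% of features were. The groups stood apart, lower at 3 months, for 4 genes (Gpm6a, Upk3b, Wt1 and Krt19), as for 17.4% of features. The median difference of the 9 genes was −0.36, against 0.01 over all features. Krt19 differed by −0.90 ± 0.47, Upk1b by −0.44 ± 0.71, Wt1 by −0.36 ± 0.23, Krt8 by −0.30 ± 0.35 and Bnc1 by −0.12 ± 0.26. Msln differed by 0.41 ± 0.48 and Tbx18 by 0.12 ± 0.41, with 95% intervals of −0.72 to 1.54 and −0.86 to 1.09 that leave either direction possible.

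The reading of this comparison turned on which 12W-Ctrl heart was used. Without 12W-Ctrl replicate 1 all 9 genes were lower at 3 months, with a median of −0.74 and Gpm6a at −2.38. Without 12W-Ctrl replicate 2 the median was 0.16, 5 genes were higher and Gpm6a was at −0.99. Upk3b was at −2.54 and −0.66 in these fits. Gpm6a and Upk3b stayed lower whichever of the 6 arrays was left out, but never past the adjusted threshold. For Krt19 the difference was −0.16 without 8W-Ctrl replicate 2 and −1.63 without 8W-Ctrl replicate 1.

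The comparison of 12W-TTg with 12W-Ctrl asks what the transgene changed at a matched time. Means were lower in 12W-TTg for 8 of the 9 genes, against 48.3% of all features, and none passed the adjusted threshold, as 0.00450% of features did. Msln had the widest difference, −1.07 ± 0.48, a 2.09-fold lower mean (unadjusted p = 0.0618, adjusted p = 0.680). Upk1b differed by −0.89 ± 0.71, Upk3b by −0.81 ± 0.68 and Gpm6a by −0.81 ± 0.48. The 4 surface protein genes thus had similar differences, each with an interval that includes 0.

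The other genes differed less between 12W-TTg and 12W-Ctrl. Krt19 differed by −0.39 ± 0.47, Wt1 by −0.32 ± 0.23, Tbx18 by −0.32 ± 0.41 and Bnc1 by −0.14 ± 0.26. Krt8 differed by 0.035 ± 0.35 with a 95% interval of −0.79 to 0.86. No gene had an unadjusted p under 0.05 in limma, against 7.47% of features, and the groups stood apart for 2 genes, Wt1 and Krt19, both lower in 12W-TTg, as for 19.3% of features. The median of the 9 differences was −0.39, against 0.01 over all features.

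This comparison also turned on which control heart was used. Without 12W-Ctrl replicate 1 the median was −0.11, 4 of the 9 genes were higher in 12W-TTg, and Msln was at −0.32, Gpm6a at −0.11, Upk3b at 0.14 and Upk1b at 0.20. Without 12W-Ctrl replicate 2 all 9 genes were lower, with a median of −0.44, Msln at −1.81, Upk1b at −1.97, Upk3b at −1.76 and Gpm6a at −1.50. Neither fit took a gene past the adjusted threshold. On its own, 12W-Ctrl replicate 1 lay above the 12W-TTg range for 8 of the 9 genes, whereas 12W-Ctrl replicate 2 lay above it for 2, inside it for 5 and below it for 2. The shares of all features in these places were not counted, so the counts only describe these 9 genes.

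The comparison of 12W-TTg with 8W-Ctrl changes both genotype and time. It shares its arrays with both comparisons above and is no independent evidence for either. All 9 genes had a lower mean in 12W-TTg, against 47.3% of all features. Gpm6a differed by −2.49 ± 0.48, a 5.62-fold lower mean (unadjusted p = 0.00115, adjusted p = 0.340), and Upk3b by −2.41 ± 0.68, a 5.31-fold lower mean (unadjusted p = 0.00883, adjusted p = 0.380). Krt19 differed by −1.28 ± 0.47 (adjusted p = 0.467) and Wt1 by −0.69 ± 0.23 (adjusted p = 0.427). These 4 genes had an unadjusted p under 0.05 in limma, all lower, where 5.41% of features did, and their groups did not overlap.

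No gene passed the adjusted threshold in limma between 12W-TTg and 8W-Ctrl, nor did any feature of the array (0%), while 9.71% of features had an unadjusted p under 0.05. The groups stood apart, lower in 12W-TTg, for 7 of the 9 genes, as for 18.9% of features, with Tbx18 and Krt8 overlapping. Upk1b differed by −1.32 ± 0.71, Msln by −0.66 ± 0.48, Bnc1 and Krt8 each by −0.26, with SEs of 0.26 and 0.35, and Tbx18 by −0.20 ± 0.41. The median was −0.69, against 0.02 over all features. Over the arrays left out the median lay between −0.97 and −0.54, Gpm6a between −2.86 and −2.12 and Upk3b between −3.06 and −1.76. Wt1 moved between −0.83 and −0.54, whereas Krt19 was at −0.54 without 8W-Ctrl replicate 2.

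**Figure D2:**
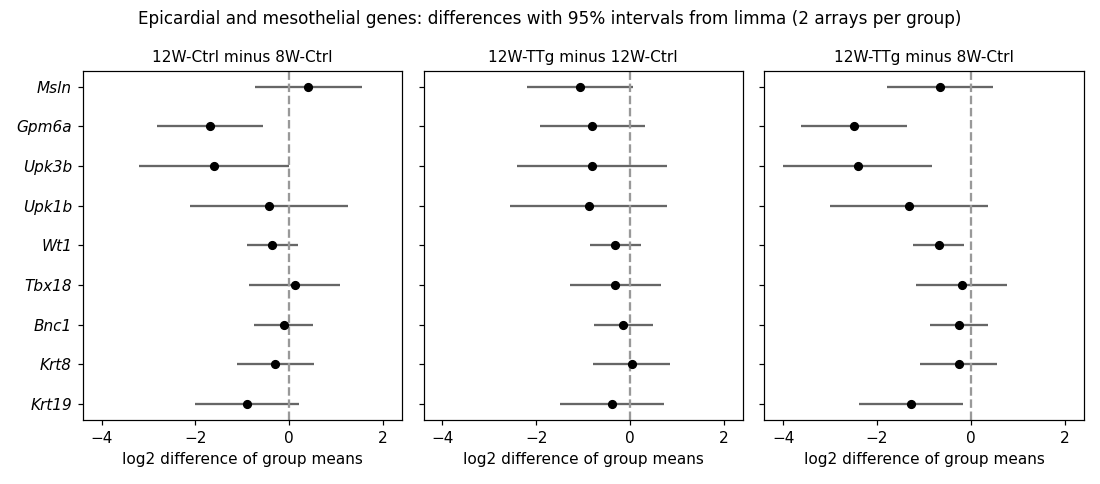
Log2 differences of group means for the 9 genes in each comparison, with points for the difference and lines for limma's 95% interval (2 arrays per group). The intervals of Gpm6a and Upk3b lie below 0 in the comparisons with 8W-Ctrl, those of Wt1 and Krt19 only for 12W-TTg minus 8W-Ctrl, and none does for 12W-TTg minus 12W-Ctrl.

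The arrays of one group were often as far apart as the groups. In 12W-Ctrl, replicate 1 exceeded replicate 2 for 8 of the 9 genes, and Wt1 was equal. The gap was 2.16 for Upk1b, 1.89 for Upk3b, 1.49 for Msln and 1.39 for Gpm6a, and 4 of the 9 genes differed by more than 1, against 6.28% of all features. In 8W-Ctrl the pair ran the other way for 7 genes, with replicate 2 above replicate 1 by 1.47 for Krt19, 1.33 for Upk1b and 1.29 for Upk3b, the 3 genes whose gap exceeded 1, against 7.47% of all features. In 12W-TTg replicate 1 was higher for 5 genes and replicate 2 for 4, and 1 of the 9, Tbx18, differed by more than 1, against 3.85% of all features.

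**Figure D3:**
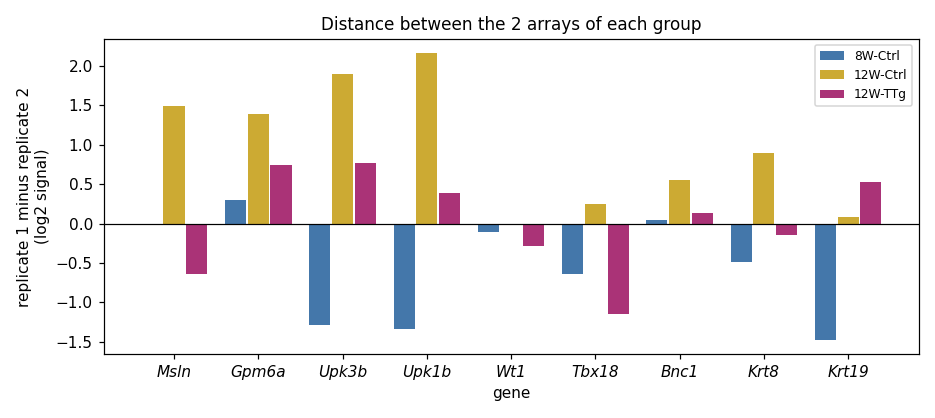
Replicate 1 minus replicate 2 in log2 signal for each gene, with 1 bar per group. The 12W-Ctrl bars are at or above 0 for all 9 genes and reach 2.16 for Upk1b, the 8W-Ctrl bars are below 0 for 7 genes, and the 12W-TTg bars are mixed.

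The mean over the 9 genes was 5.98 and 6.53 on the 8W-Ctrl arrays, 6.20 and 5.23 on the 12W-Ctrl arrays and 5.21 and 5.17 on the 12W-TTg arrays. By this mean 12W-Ctrl replicate 2 sat with the 12W-TTg hearts and 12W-Ctrl replicate 1 with the 8W-Ctrl hearts. Fibroblast markers (8 of 8 measured) averaged 14.04 and 12.55 in 8W-Ctrl, 14.08 and 13.13 in 12W-Ctrl and 12.81 and 11.46 in 12W-TTg. They thus moved with the epicardial genes in 12W-Ctrl, but in 8W-Ctrl the heart with the higher fibroblast mean, replicate 1, had the lower epicardial mean. Macrophage markers (7 of 8 measured) averaged 9.52 and 8.70 in 8W-Ctrl and 8.13 and 7.47 in 12W-TTg, and in 12W-Ctrl were highest of all on replicate 1 and at 8.47 on replicate 2. Between 12W-TTg and 12W-Ctrl the mean difference was −1.48 for fibroblast and −1.435 for macrophage markers, against −0.52 for the 9 genes. All 8 fibroblast and all 7 macrophage markers were lower in 12W-TTg, against 48.3% of all features. The part of these cell types in the epicardial differences was not tested.

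Endocardial markers (5 of 5), among them Npr3, the natriuretic peptide clearance receptor, averaged 9.36 and 8.54 in 8W-Ctrl, 8.55 and 7.63 in 12W-Ctrl and 8.04 and 7.42 in 12W-TTg. In the comparisons with 8W-Ctrl their mean moved the same way as that of the epicardial genes and further. Between 12W-TTg and 12W-Ctrl it moved less, with a mean difference of −0.36 against −0.52 for the 9 genes. The endocardial mean difference was −0.86 between 12W-Ctrl and 8W-Ctrl, against −0.54 for the 9 genes. It was −1.22 between 12W-TTg and 8W-Ctrl, against −1.06, with all 5 markers lower in 12W-TTg. Within 12W-Ctrl replicate 1 was again the higher array, whereas within 8W-Ctrl the order was opposite to that of the epicardial mean. The part of endocardial cells in the epicardial differences was not tested.

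Endothelial markers (7 of 8 measured) averaged between 10.78 and 11.33 on all arrays, a mean over members that ran opposite ways. Between 12W-TTg and 8W-Ctrl Kdr, a VEGF receptor, differed by 2.14 ± 0.33 (unadjusted p = 0.000295, adjusted p = 0.340 in limma) and Emcn, which encodes endomucin, by −0.96 ± 0.39 (unadjusted p = 0.0425, adjusted p = 0.505). Mural markers (6 of 6) averaged between 10.05 and 10.84. Among them Acta2, smooth muscle actin, differed by 2.23 ± 0.59 and Myh11, smooth muscle myosin, by 0.89 ± 0.23 (adjusted p = 0.351 for both), while Kcnj8, a potassium channel of pericytes, differed by −0.55 ± 0.23 (adjusted p = 0.512). Emcn, Acta2 and Myh11 are named here after their values were seen.

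Markers of lung and other epithelium (11 of 11), a tissue that shares keratins and uroplakins with mesothelium, stayed between 3.22 and 3.39 on all arrays, and 8 of the 11 had a mean in the dim range. Schwann cell and neuron markers (5 of 7), relevant to Gpm6a, lay between 3.47 and 3.87. Adipocyte markers (5 of 5) averaged 8.54 on 8W-Ctrl replicate 1 and 5.98 to 6.28 elsewhere, with the fat hormone Adipoq at 10.34 on that array and at most 4.83 on the others.

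**Figure D4:**
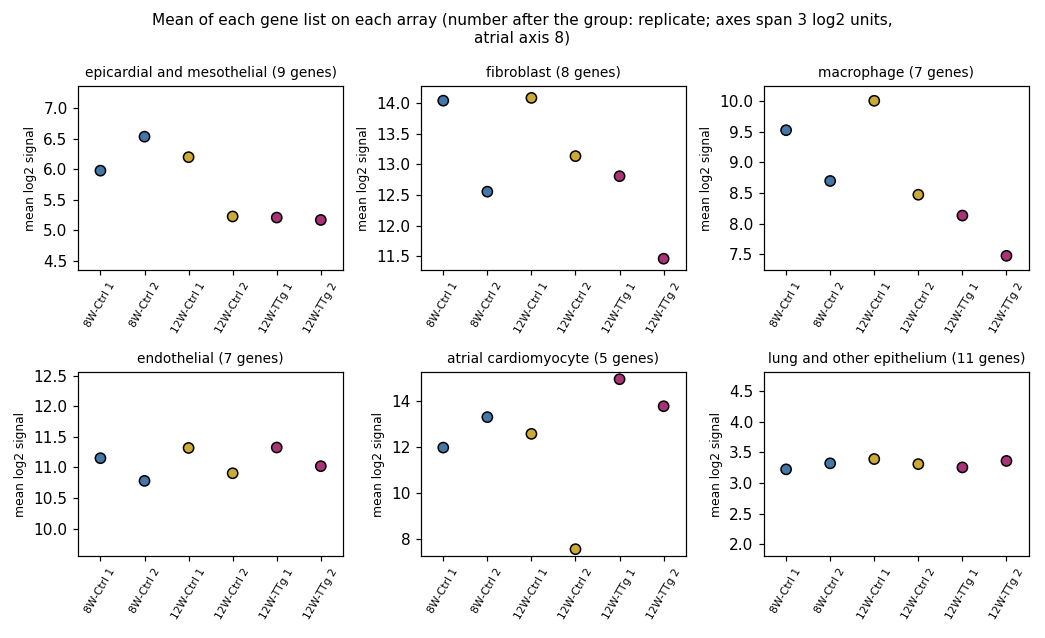
Mean log2 signal of the 9 epicardial and mesothelial genes and of 5 marker lists on each of the 6 arrays, coloured by group; axes span 3 log2 units, and 8 for atrial markers. The epicardial mean of 12W-Ctrl replicate 2 (5.23) is level with both 12W-TTg arrays, the same array has the lowest atrial mean (7.56), and the lung and other epithelium mean stays between 3.22 and 3.39.

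Partners and close relatives of the 9 genes were read from a list, of which 8 of 9 were measured. None passed limma's adjusted threshold in any of the 3 comparisons. At an unadjusted p under 0.05, 3 of the 8 (Gpm6b, Bnc2 and Tbx15) were lower in 12W-TTg than in 12W-Ctrl, as were 4.11% of all features. Only Krt18 was lower in 12W-TTg than in 8W-Ctrl, where 5.41% of all features were, and 0 differed between the control groups. Krt18, the usual partner of Krt8, was at 4.11 and 4.41 in 8W-Ctrl, at 4.27 and 3.61 in 12W-Ctrl and at 3.46 and 3.18 in 12W-TTg, and both 12W-TTg arrays lay below all control arrays. Both 12W-TTg values and 12W-Ctrl replicate 2 were in the dim range. Its difference between 12W-TTg and 8W-Ctrl was −0.94 ± 0.30 (unadjusted p = 0.0159, adjusted p = 0.417 in limma). Krt7, another keratin of mesothelium, differed by −0.87 ± 0.46 in that comparison and by −0.03 ± 0.46 between 12W-TTg and 12W-Ctrl. The latter was 0.51 without 12W-Ctrl replicate 1 and −0.56 without 12W-Ctrl replicate 2.

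The uroplakin genes Upk1a, Upk2 and Upk3a, whose products build the bladder's surface plaques with Upk1b and Upk3b, did not share the pattern of Upk3b. Their differences between 12W-TTg and 8W-Ctrl were −0.13 ± 0.26, 0.46 ± 0.25 and 0.20 ± 0.24, and the means of Upk2 and Upk3a were in the dim range. Gpm6b, the close relative of Gpm6a, was at 11.45 and 10.13 in 8W-Ctrl, at 12.16 and 11.04 in 12W-Ctrl and at 9.88 and 9.54 in 12W-TTg. Unlike Gpm6a it was highest in 12W-Ctrl. It differed by −1.89 ± 0.52 between 12W-TTg and 12W-Ctrl (unadjusted p = 0.00772, adjusted p = 0.661) and by 0.81 ± 0.52 between 12W-Ctrl and 8W-Ctrl. Without 12W-Ctrl replicate 1 these differences were −1.33 and 0.25, and without 12W-Ctrl replicate 2 they were −2.45 and 1.37. Bnc2, a zinc finger factor of fibroblasts related to Bnc1, and Tbx15, a T-box factor related to Tbx18, differed by −0.95 ± 0.39 and −0.84 ± 0.34 between 12W-TTg and 12W-Ctrl, with groups that did not overlap. The mean of Tbx15 in 12W-TTg was in the dim range. Without 12W-Ctrl replicate 1 Bnc2 was at −0.67 and Tbx15 at −0.37, and neither these nor Gpm6b then had an unadjusted p under 0.05 in limma.

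Of 15 other mesothelial genes, 14 were measured. None passed limma's adjusted threshold in any comparison. At an unadjusted p under 0.05, 4 of the 14 were lower and 1 was higher in 12W-TTg than in 8W-Ctrl, against 5.41% and 4.30% of all features. In 12W-Ctrl 2 were lower than in 8W-Ctrl, against 4.09% of features, and 1 was lower in 12W-TTg than in 12W-Ctrl, against 4.11%. Between 12W-TTg and 8W-Ctrl, 8 had a lower mean and 6 a higher one, with a median of −0.46, which was −0.09 without 12W-TTg replicate 2. The groups stood apart for 6 lower and 2 higher genes of the 14, against 18.9% and 21.2% of all features. Nkain4, which encodes a partner of the sodium pump, was at 6.07 and 7.78 in 8W-Ctrl, at 5.87 and 5.03 in 12W-Ctrl and at 5.05 and 4.81 in 12W-TTg. Like Gpm6a and Upk3b it was higher in both 8W-Ctrl hearts than in all later hearts. It differed by −1.995 ± 0.55 for 12W-TTg minus 8W-Ctrl (unadjusted p = 0.00837, adjusted p = 0.373 in limma) and by −1.48 ± 0.55 for 12W-Ctrl minus 8W-Ctrl. Without 8W-Ctrl replicate 2 these differences were −1.14 and −0.62. Lrrn4, a leucine-rich repeat protein, differed by −0.995 ± 0.39 and −0.69 ± 0.39 in the same comparisons, the latter −1.04 without 12W-Ctrl replicate 1 and −0.34 without 12W-Ctrl replicate 2. Pdpn, which encodes podoplanin of mesothelium and lymphatic vessels, differed by −0.90 ± 0.53 and 0.045 ± 0.53, and the latter turned to −0.61 without 12W-Ctrl replicate 1 and was 0.70 without 12W-Ctrl replicate 2. Calb2, which encodes calretinin, was dim on all 6 arrays, at 2.17 to 2.87. Between 12W-TTg and 12W-Ctrl 7 of the 14 genes were lower and 7 higher, with a median of −0.03 that was 0.068 without 12W-Ctrl replicate 1 and −0.23 without 12W-Ctrl replicate 2.

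Genes of epicardial development and retinoid signalling were all measured (15 of 15), and none passed limma's adjusted threshold in any comparison. At an unadjusted p under 0.05, 3 of the 15 were lower in 12W-TTg than in 8W-Ctrl, against 5.41% of all features. Between 12W-TTg and 12W-Ctrl 2 were lower and 1 was higher, against 4.11% and 3.35%, and 1 was higher in 12W-Ctrl than in 8W-Ctrl, against 3.91%. Retinoic acid from the epicardium is a known growth signal for the developing heart. Aldh1a1, a retinaldehyde dehydrogenase, was at 11.54 and 11.41 in 8W-Ctrl, at 11.45 and 8.28 in 12W-Ctrl and at 7.58 and 8.58 in 12W-TTg. Here 12W-Ctrl replicate 1 lay between the 8W-Ctrl hearts and 12W-Ctrl replicate 2 lay in the 12W-TTg range. Its difference was −3.40 ± 0.91 between 12W-TTg and 8W-Ctrl (adjusted p = 0.360). Aldh1a2, the retinaldehyde dehydrogenase of the embryonic epicardium, differed by −0.09 ± 0.52 there. Tcf21, whose gene carries the Cre, was at 8.48 and 4.98 in 8W-Ctrl, at 7.51 and 6.42 in 12W-Ctrl and at 5.23 and 4.98 in 12W-TTg. Sema3d, a guidance factor of the epicardium, differed by −1.31 ± 0.51 between 12W-TTg and 8W-Ctrl.

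Of 12 genes of the epithelial-to-mesenchymal transition, 9 were measured and none passed limma's adjusted threshold. At an unadjusted p under 0.05, 1 of the 9 was lower in 12W-TTg than in 12W-Ctrl, against 4.11% of all features, 1 was lower in 12W-TTg than in 8W-Ctrl, against 5.41%, and 1 was higher in 12W-Ctrl than in 8W-Ctrl, against 3.91%. Between 12W-TTg and 12W-Ctrl 8 of the 9 had a lower mean, as had 48.3% of all features, with a median of −0.41. Between 12W-Ctrl and 8W-Ctrl 6 had a higher mean, as had 50.5% of all features, with a median of 0.25. Snai1, a repressor of epithelial genes, was at 4.77 and 4.74 in 8W-Ctrl, at 6.0 and 5.19 in 12W-Ctrl and at 4.84 and 4.85 in 12W-TTg. It was highest in both 12W-Ctrl hearts, with a difference of −0.75 ± 0.31 for 12W-TTg minus 12W-Ctrl (unadjusted p = 0.0430, adjusted p = 0.661 in limma). This was −0.35 without 12W-Ctrl replicate 1, where no gene of the list had an unadjusted p under 0.05 in this comparison, and −1.16 without 12W-Ctrl replicate 2. Snai2 and Zeb1, repressors of the same kind, differed by −0.41 ± 0.24 and −0.63 ± 0.27, and Twist1, which was dim on 5 of the 6 arrays, by −0.22 ± 0.28.

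The features whose pattern over the 6 arrays was most like the mean of the 9 genes were picked by Pearson's r among 3043 features with 1 symbol, a mean at or above 3.65 and an SD of at least 0.5. They were Kcnip3, a calcium-binding channel partner (r = 0.981), the complement gene C2 (0.970), Slc9a3r1, an ezrin-binding scaffold (0.952), Rrm2, a subunit of ribonucleotide reductase (0.949), and Rarres2, which encodes chemerin (0.947). For Msln alone they were Irak3, an inhibitor of Toll-like receptor signalling (0.986), Agap2 (0.985) and the ubiquitin ligase gene Marchf1 (0.982). Rarres2, for instance, was at 5.38 and 5.55 in 8W-Ctrl, at 4.98 and 4.10 in 12W-Ctrl and at 4.20 and 3.91 in 12W-TTg. With 6 arrays and so many candidates, high values of r are found by selection, and they are given as a description only.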

How the data were processed

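The deposited table held 1 log2 signal per array feature and array, summarised by the authors. Per the submitters' processing notes Transcriptome Analysis Console 4.0 was used, and the summary, background and normalization methods are not given in the sources used here. Per the labels' protocols, only RNA with a RIN above 7.0 was used, at 100 ng per array. Groups came from the sample titles, and replicates are separate hearts per the series design. Features were named through the platform annotation, in which 19572 of 22206 features had 1 symbol and 2634 had none. No listed gene had more than 1 feature.

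The values were used without further normalization. Group means were modelled over the 6 arrays together with limma 3.58.1 in R 4.3.3, with moderated spread (3 residual and 4.13 prior degrees of freedom), two-sided tests and Benjamini-Hochberg adjustment over all features of each of 3 comparisons. The pipeline was tested on simulated data. Precision is limited by having only 2 arrays in each group.

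The 9 genes were always named, as was each measured partner. Of the other lists the rule allowed only the first 4 measured genes in written order to be named. Emcn, Acta2 and Myh11 lie outside that rule and were named after their values were seen. The members and lists were chosen with earlier results of these data known. Alternatives were a trended or robust prior, quantile normalization or median centring, only brighter features, only named features, a fit of the compared groups by themselves, the replicate number as a block, a 2-fold minimum at an unadjusted p under 0.05, averaging repeated symbols, and each array left out in turn. After the data had been seen, the same alternatives were added for the differences given for partner, mesothelial, epicardial development and transition genes. They were not run for the cell type markers.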

Additional observations from a re-analysis of the deposited data

How the results depend on the processing

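No alternative took any of the 9 genes past the adjusted threshold in any comparison. Their changes of sign came only from leaving out an array, which leaves a group with 1 array assumed to vary like the others. Besides this, only quantile normalization and median centring could change a sign, because the other alternatives leave the differences of these genes as they are. For 12W-TTg minus 12W-Ctrl the range over the arrays left out was −1.76 to 0.14 for Upk3b, −1.97 to 0.20 for Upk1b and −0.41 to 0.14 for Bnc1, each highest without 12W-Ctrl replicate 1. It was −0.41 to 0.49 for Krt8, which was also at −0.04 without 12W-TTg replicate 2, and −0.89 to 0.26 for Tbx18, highest without 12W-TTg replicate 1. For 12W-Ctrl minus 8W-Ctrl it was −0.34 to 1.16 for Msln, −1.51 to 0.65 for Upk1b, −0.40 to 0.16 for Bnc1 and −0.74 to 0.16 for Krt8, each highest without 12W-Ctrl replicate 2, and −0.20 to 0.44 for Tbx18, lowest without 8W-Ctrl replicate 1. For 12W-TTg minus 8W-Ctrl it was −0.77 to 0.37 for Tbx18.

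The median of the 9 genes moved by less than the 0.60 SD between replicates under every alternative. This SD is larger in size than the medians of −0.39 for 12W-TTg minus 12W-Ctrl and −0.36 for 12W-Ctrl minus 8W-Ctrl. For these comparisons it therefore cannot show a stable median, and the latter median changed sign within it. Leaving out each array gave −0.65 to −0.11 for 12W-TTg minus 12W-Ctrl, −0.74 to 0.16 for 12W-Ctrl minus 8W-Ctrl and −0.97 to −0.54 for 12W-TTg minus 8W-Ctrl.

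Over all features, the counts past the adjusted threshold were 1 for 12W-TTg minus 12W-Ctrl, 1 for 12W-Ctrl minus 8W-Ctrl and 0 for 12W-TTg minus 8W-Ctrl (2156 at an unadjusted p under 0.05 in limma). With an unadjusted p under 0.05 and a 2-fold minimum they were 666, 613 and 886. The first was 2 with the compared groups alone. The second was 0 with an intensity trend, with quantile normalization and with dim features left out, and the third was 1 with a robust prior. Leaving out each array gave 0 to 2, 0 to 6 and 0 to 22. The cause was not tested.

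The replicate numbers of the titles are not known to pair hearts. The distances between replicate 1 and replicate 2 correlated across features at 0.120 to 0.136 between groups. With the replicate block the counts were 11, 1 and 5, and Gpm6a between 12W-TTg and 8W-Ctrl had an adjusted p of 0.0626 with the same difference of −2.49, the smallest for any of the 9 genes under that fit. Between 12W-TTg and 12W-Ctrl the block gave Gpm6a −0.81 ± 0.32 (unadjusted p = 0.0379, adjusted p = 0.492), the only one of the 9 genes with an unadjusted p under 0.05 in that comparison, where the fit without the block had 0.

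The same alternatives were run for the differences given above for partner, mesothelial, epicardial development and transition genes, after the data had been seen. They took none of these past the adjusted threshold. The cell type markers, Kdr, Emcn, Acta2, Myh11 and Kcnj8 among them, were not put through the alternatives. Krt7 between 12W-TTg and 12W-Ctrl was 0.020 with quantile normalization, 0.015 with median centring and −0.56 to 0.51 over the arrays left out. Over these, Twist1 lay between −0.53 and 0.10 there and Pdpn between −0.61 and 0.70 for 12W-Ctrl minus 8W-Ctrl. For 12W-TTg minus 8W-Ctrl, Upk1a lay between −0.28 and 0.015 and Aldh1a2 between −0.54 and 0.36.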
